A study of Arabidopsis thaliana with 6 samples.

Results

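The genes described here are the core of the phosphate starvation and phosphate transport machinery of Arabidopsis thaliana, measured in seedlings of the hid1 mutant, named after the noncoding RNA HID1, and in wild-type seedlings. The members were chosen by gene ID, with hid1 and WT values of these same libraries already known, and they number 37 of the 33323 genes listed in each library's table. No threshold set their membership, but because earlier results of the contrast were in view, the differences given below describe these genes and are no independent support for a response of the list. The mutant, labelled hid1 (hidden treasure 1), and the wild type, labelled WT, were each sequenced as 3 libraries of poly(A) RNA from whole seedlings 5 days old, and both were grown under cR. That abbreviation is known to mean continuous red light in this field. The labels call the 3 libraries of a genotype biological replicates and do not describe the allele of hid1 or the phosphate content of the medium. The values are the authors' RPKM, which are reads scaled by the length of the gene model and by the size of the library. The depth was estimated at 17.5 to 23.3 M reads per hid1 library and 19.6 to 25.6 M reads per WT library, from the RPKM step of a single read.

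Plants that run short of inorganic phosphate switch on a common set of genes. The MYB factor PHR1 binds a short promoter element named P1BS and activates most of that set, while SPX proteins, which bind inositol pyrophosphates when phosphate is plentiful, hold PHR1 back. The induced genes take up phosphate (PHT1 transporters), move it to the shoot (PHO1), replace membrane phospholipids by sulfolipids and galactolipids (SQD, MGD and DGD enzymes) and release phosphate from organic compounds (phosphatases and nucleases). The transcripts of SPX1, IPS1, AT4, SQD2, MGD2, MGD3 and PLDZ2 are widely used as markers of phosphate starvation. They are named here with the results known, and the list holds other starvation-induced genes, SPX3, DGD2 and RNS1 among them.

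The transcripts named above as markers, each of them a member that passed the test, had lower levels in hid1 than in WT seedlings. The starvation-induced DGD2 and RNS1, the main phosphate uptake transporters, PHR1, PAP10 and PECP1 were among the members that did not pass the test. SPX3 and NPC4 were among those too low to test. Values were compared as log2(RPKM + 1) with limma over all genes whose mean reached 1 RPKM in hid1 or in WT. A gene was called at an adjusted p of at most 0.05. Each log2 fold change is the hid1 mean minus the WT mean on that scale, given with its standard error (SE). This scale understates the change of genes near or under 1 RPKM, so the RPKM themselves are also given. Of the 37 members 29 passed the filter, and of these 14 fell, 1 rose and 14 did not pass the test. Over all 18871 genes tested 13.6% were called, 4.21% lower in hid1 and 9.41% higher. A decrease of more than 2-fold, the size the submitters' own rule asks for, was met on the log2(RPKM + 1) scale by 11 members and by 0.901% of all genes tested. PLDZ2 fell short of it on this scale alone, since its mean RPKM in hid1 was 34.8% of that in WT. The 3 hid1 libraries lay below the 3 WT libraries in 14 of the 29 tested members, as in 11.4% of all genes. The median log2 fold change was -0.51 over the 29 members, or -0.30 without hid1 replicate 2, and 0.07 over all genes tested. With no filter on low values all 33323 genes entered, the count of members past the threshold was 3 (AT4, PLDZ2 and GDPD1), and the median over all 37 members was -0.15. In whole seedlings, fewer cells of a type and less RNA per cell cannot be told apart.

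**Figure D1:**
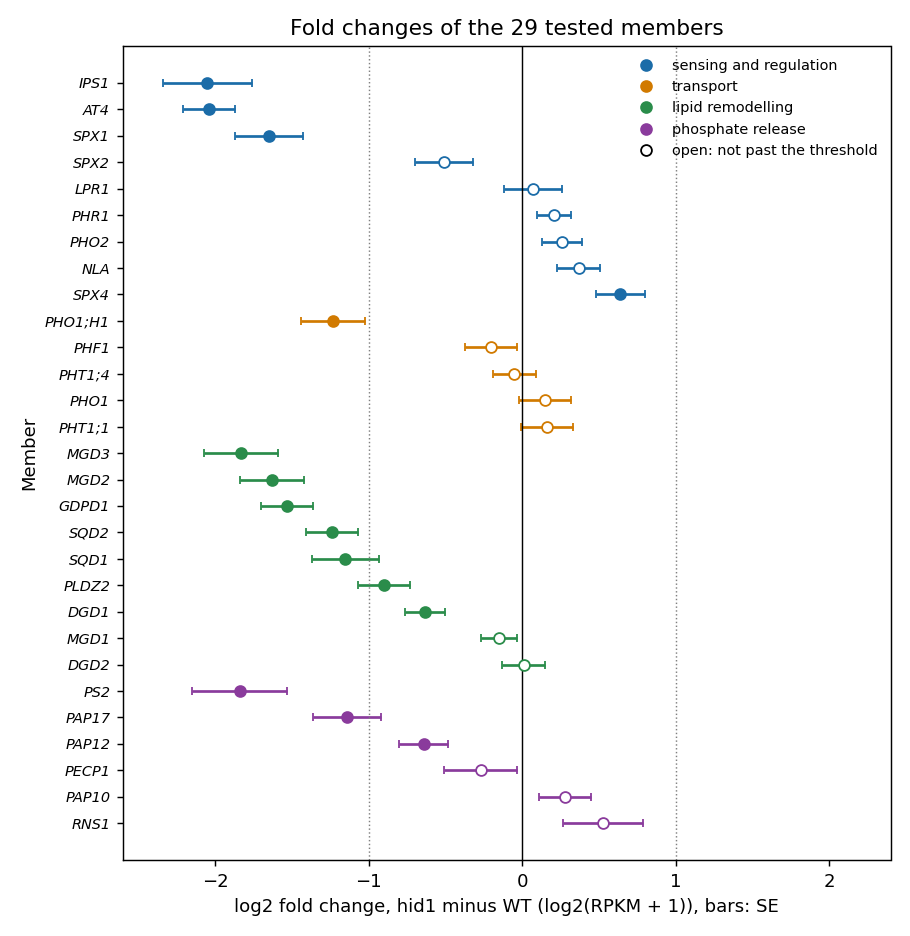
Log2 fold change of the 29 tested members on the log2(RPKM + 1) scale, hid1 minus WT, with SE bars, ordered by role and size. Filled points passed the threshold, open points did not, and dotted lines mark 2-fold. The 14 filled points left of 0 run from -2.05 for IPS1 to -0.63 for DGD1, and SPX4 at 0.64 is the only filled point on the right.

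The starvation signal is carried by 10 members that sense or regulate phosphate status, of which 9 were tested, 3 fell and 1 rose. IPS1 (AT3G09922) and AT4 (AT5G03545) are long RNAs known to bind the microRNA miR399 without being cut, and so to shield PHO2, the ubiquitin-conjugating enzyme whose transcript miR399 cuts. The sequences are shown because this pairing is what links the pair of strongly lowered RNAs to PHO2. The mature miR399f is given with its seed, bases 2 to 8, in capitals. The best matching stretch of each transcript is given with capitals for the 3 extra bases that lie opposite the gap between bases 10 and 11 of the microRNA. All are from the RefSeq annotation of the TAIR10.1 genome.
miR399f (chr2:14445084-14445104, plus strand): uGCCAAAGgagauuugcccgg
IPS1 site (chr3:3051224-3051247, plus strand): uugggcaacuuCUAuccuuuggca
AT4 site (chr5:895149-895172, plus strand): uugggcaacuuCGAuccuuuggca
PHO2 site (chr2:14281884-14281904, minus strand): uugggcaaaucuccuuuggca
With the 3 extra bases set aside, 17 of the 21 microRNA bases had a Watson-Crick partner in both IPS1 and AT4, and 19 of 21 did in PHO2 with no extra base. PHO2 held 5 stretches with at least 17 paired bases and no extra base. The IPS1 and AT4 sites lie inside short reading frames that the annotation marks as coding, and the PHO2 site lies outside the annotated coding sequence.

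AT4 was at 18.22, 15.17 and 20.26 RPKM in hid1 libraries, against 60.8, 96.39 and 76.14 RPKM in WT libraries. The groups did not overlap, and the WT libraries were spread more widely than the hid1 libraries. The mean was 17.9 ± 2.56 in hid1 and 77.8 ± 17.9 in WT (SD, n = 3 each), a log2 fold change of -2.04 (SE 0.17, limma adjusted p = 6.07e-05). IPS1 was at 0.41, 0.49 and 0.62 RPKM in hid1, against 3.08, 9.58 and 4.56 RPKM in WT. All hid1 values were low and close together, while WT replicate 2 stood above the other WT libraries. Its hid1 mean was 8.83% of the WT mean, with a log2 fold change of -2.05 (SE 0.29, adjusted p = 0.00134). The lowest hid1 library held about 4 reads of IPS1, so its level there is known only coarsely, and the fold change was -3.12 with a pseudocount of 0.1 and -0.92 with a pseudocount of 5.

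SPX1 (AT5G20150), an inhibitor of PHR1 whose own transcript is induced by starvation, was at 5.97, 6.92 and 11.81 RPKM in hid1, against 23.64, 34.3 and 23.96 RPKM in WT. Every hid1 library lay below every WT library, and hid1 replicate 3 was the nearest to WT. The log2 fold change was -1.65 (SE 0.22, adjusted p = 0.000973). SPX2 (AT2G26660), its closest relative in function, was at 7.53 ± 1.97 RPKM in hid1 and 11.0 ± 1.95 RPKM in WT and did not pass (-0.51, SE 0.19, adjusted p = 0.108). The SPX2 libraries overlapped between genotypes, and without WT replicate 1 the gene passed (adjusted p = 0.0322). SPX4 (AT5G15330), known as a family member that is not induced by phosphate starvation, was the only member that rose. It was at 5.89, 5.97 and 6.12 RPKM in hid1, against 4.15, 2.66 and 3.77 RPKM in WT. The hid1 libraries were nearly equal and all above WT, with a log2 fold change of 0.64 (SE 0.16, adjusted p = 0.0235). That call was lost in 6 of the 14 other settings, which were the omission of the filter and of any library but WT replicate 1 (adjusted p up to 0.111). SPX3 (AT2G45130), another starvation-induced inhibitor, did not reach the filter and was at most 0.67 RPKM in any library.

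PHR1 (AT4G28610), the central activator, was at 21.23, 19.65 and 22.6 RPKM in hid1, against 17, 18.37 and 18.98 RPKM in WT. The hid1 values were above the WT values without overlap, but the difference did not pass (0.21, SE 0.11, adjusted p = 0.232). PHO2 (AT2G33770) averaged 28.2 ± 4.45 RPKM in hid1 and 23.2 ± 1.37 RPKM in WT (0.26, SE 0.13, adjusted p = 0.206). NLA (AT1G02860), a ubiquitin ligase that removes PHT1 transporters from the plasma membrane, averaged 5.77 ± 0.762 and 4.22 ± 0.366 RPKM in hid1 and WT (0.37, SE 0.14, adjusted p = 0.113). LPR1 (AT1G23010), a ferroxidase that stops root growth under low phosphate, averaged 1.83 ± 0.301 and 1.73 ± 0.497 RPKM in hid1 and WT (adjusted p = 0.849). None of these 4 genes passed the test.

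**Figure D2:**
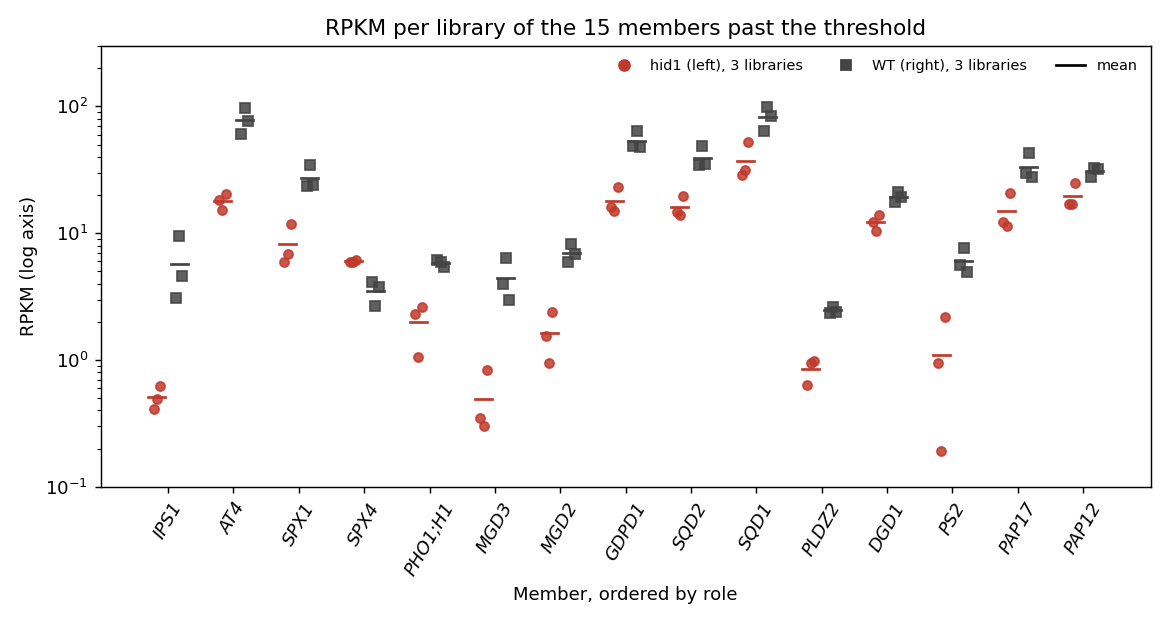
RPKM in each library (log axis) of the 15 members past the threshold, with hid1 as circles on the left of each pair and WT as squares on the right, and short lines at the means. In 14 members all circles lie below all squares, and in SPX4 all circles lie above.

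Few transport members could be tested, and a single one was called. Of 10 members 5 were tested, and among these PHO1;H1 fell and none rose. PHO1;H1 (AT1G68740), a homologue of the xylem-loading exporter PHO1 that is induced by starvation through PHR1, was at 2.3, 1.05 and 2.63 RPKM in hid1, against 6.12, 5.92 and 5.45 RPKM in WT. The WT values lay close together and the hid1 values well below them, with a log2 fold change of -1.23 (SE 0.21, adjusted p = 0.00372). PHO1 itself (AT3G23430) was at 19.1, 14.58 and 16.59 RPKM in hid1, against 19.92, 12.63 and 13.25 RPKM in WT, with overlap (0.15, SE 0.17, adjusted p = 0.615). The principal root uptake transporters were well expressed in both genotypes. PHT1;1 (AT5G43350) was at 26.29, 27.08 and 31.34 RPKM in hid1, against 34.24, 21.97 and 20.74 RPKM in WT (0.16, SE 0.17, adjusted p = 0.57). PHT1;4 (AT2G38940) was at 22.63, 31.75 and 29.68 RPKM in hid1, against 32.16, 26.04 and 28.62 RPKM in WT (-0.05, SE 0.14, adjusted p = 0.837). The genotypes overlapped in both, and the fold change of PHT1;4 changed sign when hid1 replicate 1 (0.09) or WT replicate 1 (0.02) was left out. PHF1 (AT3G52190), which helps PHT1 proteins leave the endoplasmic reticulum, averaged 8.44 ± 1.27 RPKM in hid1 and 9.94 ± 2.36 RPKM in WT (adjusted p = 0.476). PHT1;2, PHT1;3, PHT1;5, PHT1;8 and PHT1;9 did not reach the filter, and their highest value in any library was 0.56 RPKM, about 23 reads, in PHT1;5. PHT1;1, PHT1;2 and PHT1;3 are similar neighbours on chromosome 5, so their values are uncertain where the authors' counting could split reads among them.

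Because PHT1 and PHO1 genes act mainly in roots, root markers are set beside them. The summed level of 8 root hair genes was 204, 94.2 and 139 RPKM in hid1 libraries, against 109, 34.4 and 39.1 RPKM in WT libraries. WT replicate 1 had a sum above that of hid1 replicate 2, and was also the WT library with the highest PHT1;1, PHT1;4 and PHO1 values. All 8 genes had positive fold changes and 3 passed the test (EXPA7, PRP3 and RSL4). The 6 root body genes, of which PYK10 makes up most, summed to 1220, 1352 and 1309 RPKM in hid1 and to 1236, 1214 and 1022 RPKM in WT. Of these, SCR rose and PLT1 and PLT2 were too low to test. The 4 green-tissue genes, led by the abundant RBCS1A and LHCB1.3, summed to between 48379 and 60972 RPKM in hid1 and between 54476 and 56530 RPKM in WT, and PORC fell. The 2 seed maturation genes summed to between 9.73 and 15.5 RPKM in hid1 and between 5.20 and 14.9 RPKM in WT, and neither passed. The part of organ proportions in the differences of the members was not tested.

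The lipid-remodelling members were the group with the most decreases. Of 11 members 9 were tested, 7 fell and none rose, with a median log2 fold change of -1.15. MGD2 and MGD3, the galactolipid synthases of the outer plastid envelope that are induced by starvation, had the largest decreases among them. MGD3 (AT2G11810) was at 0.35, 0.3 and 0.84 RPKM in hid1, against 3.97, 6.34 and 2.99 RPKM in WT. MGD2 (AT5G20410) was at 1.55, 0.95 and 2.4 RPKM in hid1, against 5.98, 8.15 and 6.87 RPKM in WT. In both, the highest hid1 library was well under the lowest WT library. The log2 fold change was -1.83 for MGD3 (SE 0.24, adjusted p = 0.000822) and -1.63 for MGD2 (SE 0.21, adjusted p = 0.0007). With a pseudocount of 0.1 these values were -2.97 and -2.11, and with a pseudocount of 5 they were -0.77 and -0.86. MGD1 (AT4G31780), the synthase of the inner envelope that makes most galactolipid in green tissue, was at 24.01, 25.55 and 30.33 RPKM in hid1, against 27.05, 32.23 and 29.52 RPKM in WT, and did not pass (-0.15, SE 0.12, adjusted p = 0.452).

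The enzymes of the following step showed another order. DGD1 (AT3G11670), the main digalactolipid synthase, was at 12.33, 10.34 and 13.8 RPKM in hid1, against 17.55, 21.15 and 19.36 RPKM in WT (-0.63, SE 0.13, adjusted p = 0.012). The groups did not overlap, but the call was lost without WT replicate 2 (adjusted p = 0.0502). DGD2 (AT4G00550), known as the starvation-induced synthase, was at 4.87, 5.21 and 5.93 RPKM in hid1, against 4.88, 5.44 and 5.5 RPKM in WT. Its values overlapped throughout, and its fold change of 0.01 (SE 0.14, adjusted p = 0.962) took the opposite sign under 5 of the 14 other settings, the 3 scalings among them.

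The sulfolipid genes fell together. SQD1 (AT4G33030), which makes the sulfoquinovose head group, was at 28.63, 31.28 and 52.02 RPKM in hid1, against 63.85, 99.33 and 83.48 RPKM in WT (-1.15, SE 0.22, adjusted p = 0.00695). SQD2 (AT5G01220), the sulfolipid synthase, was at 14.62, 13.85 and 19.81 RPKM in hid1, against 34.68, 49.01 and 34.96 RPKM in WT (-1.24, SE 0.17, adjusted p = 0.000989). In both genes hid1 replicate 3 was the highest hid1 library and WT replicate 2 the highest WT library.

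The phospholipid-degrading members split by level. GDPD1 (AT3G02040), a glycerophosphodiester phosphodiesterase that frees glycerol-3-phosphate from degraded phospholipids, was at 16.22, 15.01 and 22.97 RPKM in hid1, against 48.63, 64.29 and 47.87 RPKM in WT. Its hid1 mean was 33.7% of the WT mean, with a log2 fold change of -1.53 (SE 0.17, adjusted p = 0.000327). GDPD1 overlaps AT3G02030 on the opposite strand, which averaged 6.82 RPKM in hid1 and 15.8 RPKM in WT. Since no source used here states whether strand was used, reads of their overlap cannot be told apart. The same limit holds for PLDZ2 from base 1640350 to base 1640357 of chromosome 3. There it overlaps AT3G05640 on the opposite strand, which averaged 1.63 RPKM in hid1 and 2.26 RPKM in WT. PLDZ2 (AT3G05630), a phospholipase D of starved roots, was at 0.64, 0.94 and 0.99 RPKM in hid1, against 2.36, 2.64 and 2.38 RPKM in WT. The decrease passed despite the low level (-0.90, SE 0.17, adjusted p = 0.00592), and amounted to -1.44 with a pseudocount of 0.1 and -0.35 with a pseudocount of 5. NPC4 (AT3G03530) and NPC5 (AT3G03540), phospholipases C that lie side by side, did not reach the filter, with at most 0.37 and 0.03 RPKM in any library.

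Of the 6 members that release phosphate from organic compounds, all were tested, 3 fell and none rose. PS2 (AT1G73010), a starvation-induced phosphatase that cleaves pyrophosphate, was at 0.95, 0.19 and 2.17 RPKM in hid1, against 5.57, 7.67 and 4.91 RPKM in WT. Relative to their mean, the hid1 libraries of PS2 varied more than those of PAP17 or PAP12, the lowest holding about 6 reads, yet all lay below WT (-1.84, SE 0.31, adjusted p = 0.00334). The value was -2.77 with a pseudocount of 0.1 and -0.86 with a pseudocount of 5. PAP17 (AT3G17790), a purple acid phosphatase induced by starvation and oxidative stress, was at 12.3, 11.49 and 20.8 RPKM in hid1, against 29.8, 42.98 and 27.79 RPKM in WT (-1.14, SE 0.22, adjusted p = 0.00734). It overlaps AT3G17800 on the opposite strand, which averaged 54.8 RPKM in hid1 and 41.8 RPKM in WT. Reads of that overlap cannot be told apart. PAP12 (AT2G27190), a secreted acid phosphatase, was at 17.05, 17.01 and 25.11 RPKM in hid1, against 27.6, 32.67 and 32.21 RPKM in WT (-0.64, SE 0.16, adjusted p = 0.0227). PAP12 had the narrowest gap between genotypes of the 3, and its call was lost when hid1 replicate 1 or 2 or WT replicate 2 or 3 was left out (adjusted p up to 0.0908). PAP10 (AT2G16430), an acid phosphatase of the root surface, averaged 28.2 ± 5.03 RPKM in hid1 and 23.1 ± 4.50 RPKM in WT (adjusted p = 0.298). PECP1 (AT1G17710), which cleaves phosphocholine and phosphoethanolamine, averaged 1.18 ± 0.350 and 1.69 ± 0.804 RPKM in hid1 and WT (adjusted p = 0.493). RNS1 (AT2G02990), a secreted ribonuclease induced by starvation and wounding, was at 2.41, 3.88 and 4.38 RPKM in hid1, against 3.43, 1.26 and 1.97 RPKM in WT. It did not pass over all libraries (0.53, SE 0.26, adjusted p = 0.193), and passed as higher in hid1 without WT replicate 1 (0.79, adjusted p = 0.0279).

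The lowered members shared their order among the libraries of a genotype. They were called from these same libraries, and genes that vary together are not independent observations. Of the 14 lowered members all 14 were highest among hid1 libraries in hid1 replicate 3, and 13 were highest among WT libraries in WT replicate 2. Over all genes tested these shares were 53.2% and 39.0%, and over the 794 genes called lower in hid1 they were 55.2% and 44.8%. The mean log2(RPKM + 1) over the 14 lowered members was 2.67, 2.53 and 3.12 in the hid1 libraries, against 3.99, 4.45 and 4.06 in the WT libraries. The 2 ranges had to be separate, because in each of these 14 members every hid1 library lay below every WT library. WT replicate 1 was the lowest WT library in 9 of the 14, a count for which no share over all genes was taken.

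**Figure D3:**
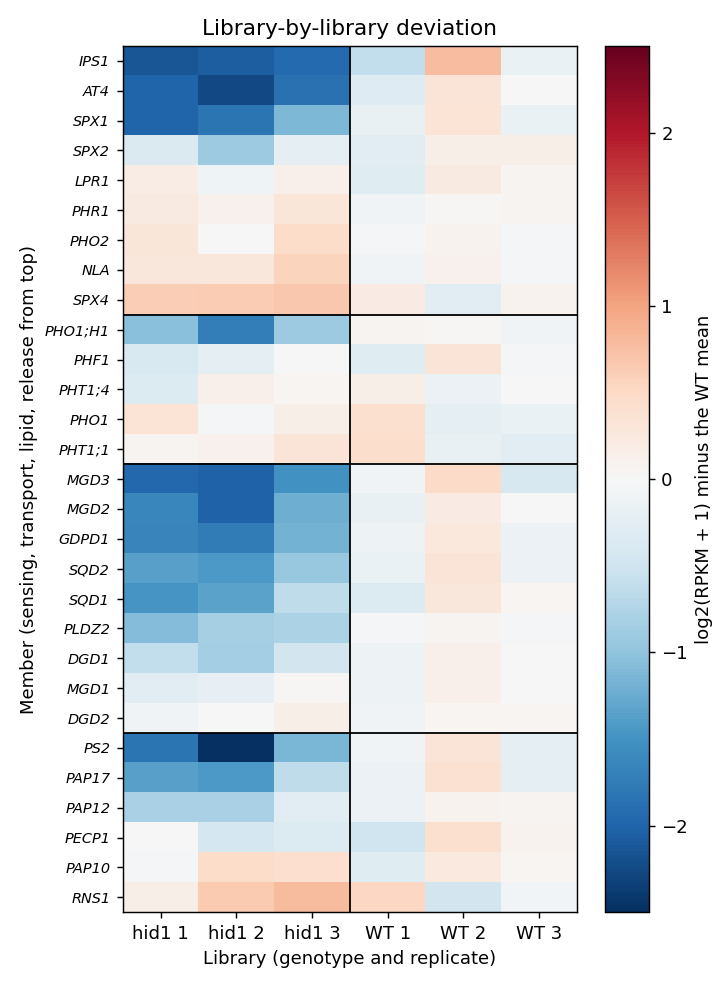
Deviation of log2(RPKM + 1) from the WT mean for the 29 tested members (rows, grouped by role) in each library (columns, hid1 then WT). Blue marks values below and red values above the WT mean; the lowered members are blue in all 3 hid1 columns, paler in hid1 replicate 3, and mostly pale red in WT replicate 2.

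PHR1 acts through P1BS, the sequence GNATATNC, which reads the same on both strands. The part of this motif in the lower levels was not tested. It was searched in a window from 250 bases before to 50 after the annotated start of each gene. It was found in 15 of 37 member promoters (40.5%), against 6.09% of the 32834 promoters of genes in the tables. Among the lowered members it was found in 9 of 14 (64.3%), among the tested members that did not fall in 3 of 15 (20.0%), and among members below the filter in 3 of 8 (37.5%). It was also found in 25 of 72 other phosphate genes (34.7%). Of these 72 genes 49 were tested, 2 fell and 8 rose, so most of the 25 were not called lower. How the 25 divide among tested and untested genes was not counted. Of all genes called lower in hid1 7.09% held the motif, as did 6.90% of those called higher and 6.19% of all genes tested. The upstream sequences of 3 lowered members, which carry the motif before the start, show its setting, with the motif in capitals. They are from RefSeq, TAIR10.1, and end at the base before the annotated start.
AT4 (chr5:894332-894581, plus strand): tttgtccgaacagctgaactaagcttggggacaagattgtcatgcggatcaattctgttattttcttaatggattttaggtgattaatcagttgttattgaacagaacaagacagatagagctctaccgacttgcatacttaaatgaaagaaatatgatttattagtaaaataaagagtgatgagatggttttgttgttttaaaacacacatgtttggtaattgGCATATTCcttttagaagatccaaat
PLDZ2 (chr3:1634944-1635193, plus strand): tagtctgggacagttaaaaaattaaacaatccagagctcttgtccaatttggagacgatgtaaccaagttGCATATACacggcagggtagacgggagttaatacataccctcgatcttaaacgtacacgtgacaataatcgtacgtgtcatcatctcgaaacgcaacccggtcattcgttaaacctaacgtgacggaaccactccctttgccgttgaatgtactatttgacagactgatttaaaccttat
GDPD1 (chr3:350011-350260, minus strand): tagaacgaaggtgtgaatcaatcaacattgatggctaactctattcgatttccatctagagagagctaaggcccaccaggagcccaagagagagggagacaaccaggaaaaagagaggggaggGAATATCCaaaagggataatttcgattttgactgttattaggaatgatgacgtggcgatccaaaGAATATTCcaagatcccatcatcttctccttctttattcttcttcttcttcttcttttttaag
Counted from the annotated start, the AT4 motif begins at -26, that of PLDZ2 at -180, and those of GDPD1 at -127 and -63. MGD2 also held 2 copies, at -14 and +38, and PS2 held 1 at -217. SPX1, SQD1, DGD1 and PAP12 held 1 each, which lay after the start, at +23, +15, +41 and +32. Among the tested members that did not fall, MGD1 and RNS1 held theirs after the start, at +26 and +20, and PHT1;4 at -7. No match was found in this window for the lowered genes IPS1, SQD2, MGD3, PAP17 and PHO1;H1. In a window reaching 1000 bases before the start, IPS1 held 2 matches and SQD2 held 1, and the shares were 78.6% of the lowered members, 53.3% of the tested members that did not fall, 87.5% of the members below the filter, 48.6% of the 72 other phosphate genes described last and 20.4% of all genes. The share was thus higher in the members too low to test than in the lowered ones, and the difference between the classes of members was not tested. A match is a stretch of letters and does not show binding.

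**Figure D4:**
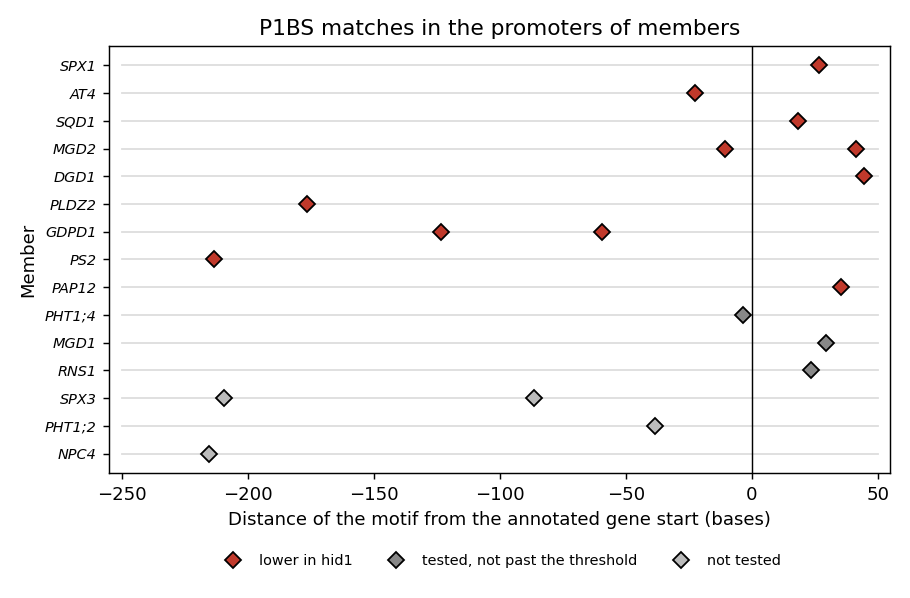
Position of the centre of each P1BS match (diamond) from 250 bases before to 50 bases after the annotated start (0) for the 15 members that hold one. Red marks the 9 members lower in hid1, dark grey the 3 tested members that did not pass and light grey the 3 members below the filter; matches lie on both sides of the start in the lowered genes.

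Among 72 other genes of phosphate signalling, transport, lipid turnover and phosphate release, listed from general knowledge, 49 were tested, of which 2 fell, 8 rose and 39 were not called, against 4.21% lower and 9.41% higher over all genes tested. The count of decreases was near that background. Their median log2 fold change was 0.13. The number of passing genes was 5 without hid1 replicate 2 or hid1 replicate 3 and 6 without WT replicate 2. The split of 8 higher against 2 lower was 6 against 5 with quantile normalization and 6 against 4 with median-ratio scaling or with a length trend removed. The clearest decrease was in G3Pp1 (AT3G47420), a starvation-induced glycerol-3-phosphate permease, at 15.03, 9.54 and 14.22 RPKM in hid1, against 39.1, 48.26 and 41.97 RPKM in WT (-1.68, SE 0.16, adjusted p = 0.00016). GDPD6 (AT5G08030), of the GDPD1 family, was at 0.27, 0.14 and 0.17 RPKM in hid1, against 1.81, 1.17 and 0.89 RPKM in WT (adjusted p = 0.0155). Both lay entirely below WT, but GDPD6 lost its call without hid1 replicate 2 or 3 and with no filter on low values. The lowest library of GDPD6 held about 4 reads. Its log2 fold change was -0.92, against -2.22 with a pseudocount of 0.1 and -0.27 with a pseudocount of 5.

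Other family members went the opposite way. GDPD2 (AT5G41080) was at 27.17, 28.28 and 36.18 RPKM in hid1, against 14.31, 17.08 and 13.55 RPKM in WT (0.98, SE 0.14, adjusted p = 0.00141). NPC1 and NPC2, relatives of NPC4, rose by 0.50 and 0.66 on the log2 scale (adjusted p = 0.0194 and 0.0179), as did the permease G3Pp2 by 1.20 (adjusted p = 0.0272). Among regulators, 4 of 15 tested rose, beside the 9.41% of all genes tested, and 2 of these calls (LPR2 and STOP1) were lost under several settings. WRKY6 (AT1G62300), a repressor of PHO1, was at 17.75, 21.53 and 17.92 RPKM in hid1, against 9.23, 6.7 and 6.72 RPKM in WT (1.24, SE 0.15, adjusted p = 0.000485). WRKY45 (AT3G01970), an activator of PHT1;1, was at 5.19, 4.76 and 4.12 RPKM in hid1, against 0.86, 1.21 and 2.08 RPKM in WT (1.28, SE 0.20, adjusted p = 0.00223). STOP1, a zinc finger factor of the root response to acid and low phosphate, rose by 0.51 (adjusted p = 0.0188), and LPR2, the relative of LPR1, by 0.41 (adjusted p = 0.0419). LPR2 lost its call under 8 of the 14 other settings, STOP1 and NPC1 under 6 each and NPC2 under 3. For LPR2 and NPC1 these included quantile normalization and median-ratio scaling. G3Pp2, which the filter of 5 RPKM removed, lost its call under 6 of 13 settings. Precursors of miR399 and miR827 were listed at 0 in most libraries, the highest of the 7 being MIR827A with 0.48 RPKM in a single WT library, and none was tested.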

How the data were processed

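Poly(A) RNA of 3 hid1 and 3 WT libraries was analysed, grouped and numbered by sample titles. Per the submitters' processing notes, reads were mapped to TAIR10 with TopHat2 2.0.9 and compared with Cuffdiff 2.0.0. The authors deposited RPKM, per the file headers. No source used here states the counter, the gene models, the treatment of multi-mapped reads or the use of strand, and RPKM of gene families and overlapping genes depend on them.

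Of 33323 gene IDs 32835 matched the RefSeq annotation of TAIR10.1, which gave positions, exon lengths and sequences. The tables hold no coordinates, so positions were not compared with the authors' build. HID1 has no entry in the name table and was not analysed here. AT4, MGD3, PLDZ2, GDPD1 and PECP1 are AT5G03545, MGDC, PLDP2, SRG3 and PEPC1 in RefSeq. Depth is approximate: the commonest small product of RPKM and exon length was read as 1 read.

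Log2(RPKM + 1) was fitted in limma 3.58.1 (R 4.3.3; lmFit, eBayes with trend, genotype the only term) over all genes whose mean reached 1 RPKM in hid1 or in WT, with Benjamini-Hochberg adjustment over all of them. An exact permutation test of 3 against 3 libraries cannot go below 0.1. The test was also tried on simulated data whose levels and spread were taken from these libraries, and the outcome is not given here. The members, the other gene lists and the tests were chosen with earlier results of these data known. Values in every library are given for each member past the threshold and for others where a role turns on them; of the other pathway genes those past the threshold are named, up to 4 a list. The 14 other settings were pseudocounts of 0.1 and 5, no filter, a filter of 5 RPKM, quantile normalization, median-ratio scaling, removal of an exon length trend, a replicate block and the omission of each library. The 1000-base promoter window was chosen after seeing the data. Python 3.11.15, pandas 2.3.3, numpy 2.4.6 and matplotlib 3.10.9 were used.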

Additional observations from a re-analysis of the deposited data

How the results depend on the processing

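Of the 15 members past the threshold, none changed sign under any of the 14 other settings, and 186 of 208 values kept their call. The 14 decreases and 1 increase were counted again under both pseudocounts, the 3 scalings and the replicate block. With no filter on low values the counts were 3 members, 4 other pathway genes and 850 of all genes, against 15, 10 and 2569, and the median over members was -0.15. That setting adds 8 members that are near 0; the cause of the lost calls was not tested. With single libraries left out, 12 to 17 members, 5 to 11 other pathway genes and 1430 to 3260 of all genes passed, and the median over members lay between -0.65 and -0.30 (without hid1 replicate 2). The count over all genes was 1430 without WT replicate 2, 1517 without hid1 replicate 2, 1562 without WT replicate 3 and 1614 without hid1 replicate 3. The split of all called genes, 1775 higher and 794 lower, was 1305 and 1343 with quantile normalization. DGD2, far from the threshold, was at -0.07 with quantile normalization or the length trend removed, -0.06 with median-ratio scaling, and between -0.05 and 0.07 with single libraries left out, with -0.05 without hid1 replicate 3 and -0.03 without WT replicate 1. PHT1;4 was at 0.09 and 0.02 without hid1 replicate 1 and WT replicate 1, and LPR1 at -0.02 with the length trend removed and between -0.08 (without WT replicate 1) and 0.18 with single libraries left out. With a replicate block 3635 of all genes, 15 members and 12 other pathway genes passed. Deviations of same-numbered libraries correlated at 0.315, 0.061 and 0.105, and WT replicate 2 correlated best with hid1 replicate 3 (0.255), so the numbers were not taken to pair the libraries. Depth limits IPS1, MGD3, PS2 and the members below the filter, some of which rest on fewer than 10 reads in a library.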
